A study of Mus musculus with 2 samples.

Results

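Liver sinusoidal endothelial genes were followed in 2 mouse liver sections measured by 10x Visium spatial transcriptomics (ST), in which barcoded spots on a slide capture polyadenylated RNA and each captured molecule is counted as 1 unique molecular identifier (UMI). The list had 10 genes, chosen by symbol: Stab2, Clec4g, Lyve1, Fcn3, Oit3, Dnase1l3, Gpr182 and Kdr for the sinusoidal endothelium, and Wnt2 and Rspo3 for the signals made by endothelium at the central vein. Of these, 9 had a row among the 32285 gene identifiers, 7 sinusoidal and 2 central vein genes. No row of the matrices used here had the symbol Fcn3, and it was not analysed here. The sections came from male C57BL/6J mice, 1 section from the normal chow diet group (NCD) and 1 from the high fat diet group (HFD). The mice were bought at 5 weeks of age and kept for 1 week before the diets. HFD mice ate a diet with 60% fat for 14 weeks of induction. During an intervention of 8 weeks that followed, mice of both groups received distilled water by mouth once daily. Whether the diet went on during the intervention is not stated in the sources used here. The perfused livers were frozen and cut at 10 µm. With 1 section per diet, diet, animal, section and slide cannot be told apart and no test was possible. All 95% intervals below are exact and cover counting error only. A spot holds several cells, so fewer endothelial cells and less RNA per cell cannot be told apart.

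Sinusoidal endothelial cells line the liver's capillaries, which have open pores and no continuous basement membrane, and they clear waste from blood through scavenger receptors. Blood runs along them from the portal vessels to the central vein, and hepatocytes along this path (the lobule axis) use different genes. Endothelium next to the central vein makes Wnt ligands and R-spondin 3, which keep the β-catenin programme of the neighbouring hepatocytes active. R-spondins act by keeping the ubiquitin ligases Rnf43 and Znrf3 from removing Wnt receptors.

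Tissue covered 3692 spots in NCD, which together gave 29037988 UMIs, and 3594 spots in HFD, which gave 72118803 UMIs. The NCD slide stood apart. There, 19.1% of UMIs came from 1300 spots outside the tissue, whose median depth of 3383 UMIs was close to the 4187.5 of spots over tissue. On the HFD slide, 1398 outside spots gave 2.93% of UMIs, and the medians were 1175.5 outside and 18549 over tissue. The labels call the cell type immune, but 8 hepatocyte genes summed to 119793 UMIs per 1000000 UMIs (CPM) in the NCD section and 137523 CPM in the HFD section, as whole liver would give. Haemoglobin genes, which mark red blood cells, summed to 6676 CPM in the NCD and 1246 CPM in the HFD section. Over all 11913 genes with at least 100 UMIs, the median log2 ratio of HFD to NCD was 0.24, so ratios near that value are typical of these 2 libraries. The sections shared 3173 barcodes over tissue, which name printed positions and not cells.

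All 9 genes are protein coding and lie on the minus strand of GRCm38 (GENCODE M21), with no other gene of that strand over them. Stab2 lies at chr10:86841198-87008025, Clec4g at chr8:3707064-3720651, Lyve1 at chr7:110850607-110863239, Oit3 at chr10:59422958-59441778 and Dnase1l3 at chr14:7964533-7994573. Gpr182 lies at chr10:127747276-127751732, Kdr at chr5:75932827-75978458, Wnt2 at chr6:17988940-18030585 and Rspo3 at chr10:29452416-29535867. The RefSeq promoter table (GRCm38.p6) held 4 of the 9 genes. The upstream bases of these 4 are shown because no other member was held, and a link between bases and levels was not tested. Their levels differed in distinct ways. Clec4g was higher in the HFD section across the lobule and Kdr was not. Stab2 was higher toward the central vein in HFD, and Wnt2 had a steep slope toward the central vein in both sections. Each run of upstream bases ends at the base before the annotated start. The runs cover chr8:3720652-3720901, chr5:75978459-75978705, chr10:87008026-87008192 and chr6:18030586-18030695. They are written 5′ to 3′ on the minus strand, with capitals for the ETS core AGGAAG or its other strand CTTCCT. The GATA core AGATAA (other strand TTATCT) was searched too.
Clec4g: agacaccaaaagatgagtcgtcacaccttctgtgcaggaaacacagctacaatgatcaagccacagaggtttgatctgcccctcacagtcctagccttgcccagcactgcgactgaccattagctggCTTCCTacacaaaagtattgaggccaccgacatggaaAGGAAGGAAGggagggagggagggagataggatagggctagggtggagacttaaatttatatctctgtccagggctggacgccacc
Kdr: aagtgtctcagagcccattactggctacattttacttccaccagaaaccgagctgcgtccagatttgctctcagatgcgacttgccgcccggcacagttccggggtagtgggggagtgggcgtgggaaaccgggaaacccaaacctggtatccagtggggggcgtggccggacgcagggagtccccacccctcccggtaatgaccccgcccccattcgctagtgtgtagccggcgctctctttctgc
Stab2: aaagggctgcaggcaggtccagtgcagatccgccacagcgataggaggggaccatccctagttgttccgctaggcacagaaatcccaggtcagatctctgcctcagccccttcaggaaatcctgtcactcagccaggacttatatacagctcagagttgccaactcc
Wnt2: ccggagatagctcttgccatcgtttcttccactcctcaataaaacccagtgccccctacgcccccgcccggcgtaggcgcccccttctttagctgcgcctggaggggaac
The Clec4g run of 250 bases held the ETS core 3 times, 2 of them sharing bases, and 29.5% of 32817 mouse promoters held it in the same window. The Kdr run of 247 bases, the Stab2 run of 167 bases and the Wnt2 run of 110 bases held neither core. In the windows of these lengths, 29.2%, 20.1% and 13.2% of promoters held the ETS core. The GATA core was in none of the 4 runs and in 9.99% of promoters in the window used for Clec4g.

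The sinusoidal genes were higher in the HFD section as a group, but not each of them. Their summed level was 197 CPM in the NCD section and 278 CPM in the HFD section, a log2 ratio of 0.50 (95% interval 0.46 to 0.54). The ratio was 0.30 with each spot drawn down to 1000 UMIs and 0.13 relative to 12 general endothelial genes in place of all UMIs, a denominator chosen after seeing the data. The summed level of the general endothelial genes was higher in HFD too, at 143 CPM in NCD and 184 CPM in HFD. So were the sums of other cells' genes, at 422 and 582 CPM for 9 hepatic stellate cell genes and 432 and 578 CPM for 9 Kupffer cell genes. The Kupffer list was split, with C1qa, C1qb and Adgre1 1.5-fold higher and Vsig4, Timd4 and Marco 1.5-fold lower. The part of these lists in the result was not tested. Of the 9 endothelial genes followed here, 4 were at least 1.5-fold higher in HFD and 0 at least 1.5-fold lower. Among all genes with 100 UMIs, 25.5% were as much higher and 5.01% as much lower. The 7 sinusoidal genes had a median log2 ratio of 0.76, above the median of 0.24 over all genes. They fell into genes well above that median (Lyve1, Oit3, Gpr182 and Clec4g), Stab2 near it, and Dnase1l3 and Kdr below it.

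Lyve1, a hyaluronan receptor of sinusoidal and lymphatic endothelium, had the widest gap. It was at 6.20 CPM (180 UMIs) in the NCD section and 21.3 CPM (1538 UMIs) in the HFD section, 3.44-fold higher (log2 1.78, interval 1.56 to 2.01). Lyve1 was found in 4.28% of NCD and 30.7% of HFD spots, and in 1.61% and 6.22% once every spot of at least that depth was thinned at random to 3000 UMIs, so the gap remained at equal depth. Of 5 other lymphatic markers with at least 100 UMIs, 1 was 1.5-fold higher in HFD (Flt4, which sinusoids also make) and 1 lower. The shares over all genes were 25.5% and 5.01%. Ccl21a was at 15.2 CPM in NCD and 13.8 CPM in HFD, Mmrn1 at 2.07 and 1.97 CPM, and Prox1, the lower gene, which hepatocytes also make, at 30.1 and 19.0 CPM. Ccl21a has a near-identical copy, so its level is uncertain.

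Oit3, a secreted zona pellucida domain protein of sinusoidal endothelium, was at 17.7 CPM in the NCD section and 34.9 CPM in the HFD section, 1.97-fold higher (log2 0.98, interval 0.84 to 1.12). Gpr182, a receptor that scavenges chemokines, was at 15.0 CPM and 28.6 CPM, 1.90-fold higher (log2 0.93, interval 0.78 to 1.08). Clec4g, the lectin LSECtin, was at 49.6 CPM (1440 UMIs) and 83.7 CPM (6037 UMIs), 1.69-fold higher (log2 0.76, interval 0.67 to 0.84). At 3000 UMIs per spot, Clec4g was found in 14.5% of NCD and 21.9% of HFD spots, Oit3 in 5.65% and 10.2%, and Gpr182 in 4.89% and 7.57%.

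The remaining sinusoidal genes stayed within 1.5-fold. Stab2, a scavenger receptor for hyaluronan, was at 29.0 CPM in the NCD and 35.9 CPM in the HFD section (log2 0.31, interval 0.19 to 0.42), close to the median of all genes. Relative to the general endothelial genes its log2 ratio was -0.06. Dnase1l3, an extracellular DNase, was at 49.8 CPM and 47.0 CPM (log2 -0.08, interval -0.17 to 0.01). Kdr, the VEGF receptor VEGFR2, was at 29.2 CPM and 26.1 CPM (log2 -0.16, interval -0.28 to -0.04). Dnase1l3 and Kdr thus lay below the median of all genes while Lyve1, Oit3, Gpr182 and Clec4g lay above it.

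Spots off tissue carried these genes as well. On the NCD slide the sinusoidal genes summed to 182 CPM off tissue against 197 CPM over it, and on the HFD slide to 169 CPM against 278 CPM. Wnt2 and Rspo3 together were at 9.02 CPM off tissue and 13.4 CPM over tissue on the NCD slide, and at 8.27 and 13.1 CPM on the HFD slide. With the mean off-tissue UMIs per spot subtracted, the log2 ratio of HFD to NCD was 0.35 for the sinusoidal sum and 1.295 for Lyve1.

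**Figure D1:**
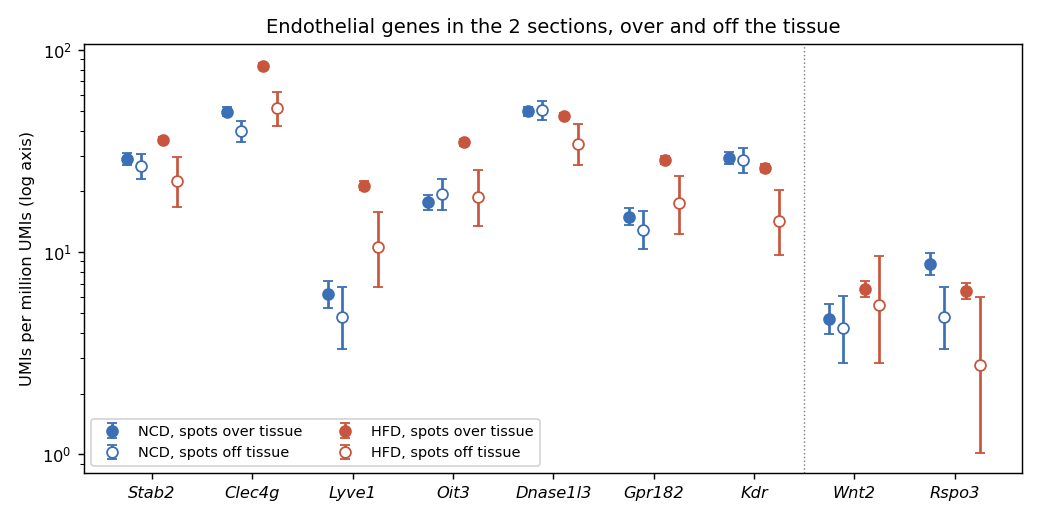
Level of each gene in CPM (log axis) in the NCD and HFD sections, with filled points for spots over tissue, open points for spots off tissue and bars for 95% Poisson intervals. Lyve1 is at 6.20 CPM in NCD and 21.3 CPM in HFD, while Kdr is at 29.2 and 26.1 CPM, and the NCD slide's off-tissue Dnase1l3 is at 50.5 CPM against 49.8 CPM over tissue.

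To place spots along the lobule, the share of 7 pericentral hepatocyte genes among their UMIs and those of 10 periportal genes was computed for each spot of at least 1000 UMIs, and the spots of each section were ranked and cut into 5 position bins of equal size, from the most periportal (bin 1) to the most pericentral (bin 5). The pericentral genes were Cyp2e1, Glul, Oat, Cyp1a2, Slc1a2, Rhbg and Gulo. None of the endothelial genes entered this score. The bins held 570 or 571 spots in NCD and 718 in HFD. Median depth per bin ran from 4029 to 9225.5 UMIs in NCD, lowest in bin 1, and from 14256 to 27718.5 in HFD, highest in bin 1. The pericentral genes themselves summed to 11089 CPM in NCD and 6300 CPM in HFD, so a given bin need not be the same place in both sections.

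The central vein genes had by far the steepest slopes of the list. Rspo3 was at 1.01, 5.85, 4.10, 8.04 and 23.1 CPM from bin 1 to bin 5 of the NCD section, the first from 4 UMIs and the last from 138. In the HFD section it was at 2.53, 3.41, 5.21, 5.49 and 17.9 CPM. Most of the increase came in the last step in both sections. The log2 ratio of bin 5 to bin 1 was 4.52 (interval 3.14 to 6.42) in NCD and 2.82 (2.38 to 3.28) in HFD.

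Wnt2 was at 2.26, 3.02, 3.25, 5.67 and 8.39 CPM along the bins of NCD and at 2.39, 3.98, 6.21, 9.04 and 13.99 CPM along those of HFD. Its increase was more even than that of Rspo3, and the HFD values were higher from bin 3 on beyond counting error. The log2 ratio of bin 5 to bin 1 was 1.89 (interval 0.85 to 3.10) in NCD and 2.55 (2.09 to 3.04) in HFD. With 10 finer bins, the most pericentral held 9.44% of all binned UMIs in NCD and 9.65% in HFD, but 22.4% and 23.3% of Wnt2 UMIs and 26.5% and 35.2% of Rspo3 UMIs.

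The 2 ligands differed in opposite directions between the sections. Over all spots, Wnt2 was at 4.68 CPM in NCD and 6.60 CPM in HFD (log2 0.49, interval 0.22 to 0.78), while Rspo3 was at 8.75 and 6.46 CPM (log2 -0.44, interval -0.66 to -0.21). Their sum was at 13.4 and 13.1 CPM (log2 -0.04, interval -0.21 to 0.13). Within bin 5 the log2 ratio of HFD to NCD was 0.74 (0.28 to 1.22) for Wnt2 and -0.37 (-0.68 to -0.06) for Rspo3. The direction for Wnt2 turned to -0.33 when each spot was drawn down to 1000 UMIs, where 18 spots of each section had a Wnt2 UMI, so no order of Wnt2 between the sections is read from the thinned spots. Subtracting off-tissue UMIs moved the sum of both genes to -0.74 and Rspo3 to -1.31.

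Wnt2 and Rspo3 were found in the same spots more than elsewhere. In NCD, Rspo3 was at 17.2 CPM in the 129 spots with a Wnt2 UMI and 8.11 CPM in the 2723 spots without (log2 1.08, interval 0.55 to 1.58). In HFD it was at 10.2 CPM in 431 spots and 5.86 CPM in 3159 (log2 0.79, interval 0.46 to 1.11). Median depth was 14673 UMIs in NCD spots with Wnt2 and 6432 in those without, and 22582 and 17876 in HFD. Within bin 5 alone the log2 ratio was 0.57 (-0.11 to 1.20) in NCD and 0.32 (-0.10 to 0.72) in HFD, so within that bin an excess was not detectable at this depth. Of 3 other vein genes, Wnt9b and Vwf but not Cdh13 were higher beyond counting error in spots with an Rspo3 UMI there. Wnt9b was higher by a log2 ratio of 1.57 (0.30 to 2.87) in NCD and 1.77 (0.46 to 3.11) in HFD, and Vwf, a large-vessel gene, by 0.87 (0.43 to 1.31) and 1.74 (1.36 to 2.12). Cdh13 was at 0.36 (-0.40 to 1.08) and 0.23 (-0.35 to 0.79). Median depth in that bin was 14703 against 6833 UMIs in NCD and 20434 against 16299.5 in HFD, with and without Rspo3. Glul, a gene of the position score, was also higher with Rspo3, by 0.27 (0.21 to 0.32) and 0.69 (0.64 to 0.73). Spots with and without Rspo3 may thus differ in place within the bin, which was not tested. In bin 5 spots with a Wnt2 UMI, Vwf was at -0.14 (-0.84 to 0.50) in NCD and 1.24 (0.86 to 1.62) in HFD. Wnt9b was within counting error there, at 0.75 (-1.03 to 2.22) and 0.84 (-0.55 to 2.15).

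The sinusoidal genes had far shallower slopes, and these differed between the sections. Their sum was at 175, 195, 197, 222 and 177 CPM from bin 1 to bin 5 of NCD, highest in bin 4, and the log2 ratio of bin 5 to bin 1 was 0.02 (interval -0.12 to 0.16). In HFD it was at 217, 272, 301, 314 and 322 CPM, and the log2 ratio was 0.57 (0.51 to 0.63). Off-tissue signal weighed more in NCD, where 1300 off-tissue spots held 1253 UMIs of these genes and the 571 spots of bin 1 held 696. On the HFD slide 1398 off-tissue spots held 369 UMIs and the 718 spots of bin 1 held 4450. With off-tissue UMIs subtracted, the NCD ratio of the sum was 0.18. The part of off-tissue signal in the slopes of the sum and of single genes was not tested. Of the 7 endothelial genes with at least 100 UMIs in the end bins of NCD (Lyve1 and Wnt2 had fewer), 1 was 1.5-fold higher in bin 5 and 0 were lower, where 11.7% of all genes were higher and 2.92% lower. In HFD, 5 of 9 were 1.5-fold higher and 0 lower, where 6.7% of all genes were higher and 4.45% lower. The genes past 1.5-fold were Rspo3 in NCD and Stab2, Oit3, Kdr, Wnt2 and Rspo3 in HFD.

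Stab2 had the steepest slope among the sinusoidal genes of HFD, with 23.2, 34.2, 38.9, 42.9 and 48.2 CPM from bin 1 to bin 5 (log2 1.05, interval 0.88 to 1.23). In NCD it was at 25.4, 24.4, 30.3, 35.6 and 27.0 CPM (log2 0.09, interval -0.28 to 0.46). The log2 ratio of HFD to NCD was -0.13, 0.49, 0.36, 0.27 and 0.84 from bin 1 to bin 5, lowest in bin 1 and highest in bin 5, with no steady increase between. Oit3 was at 24.5 CPM in bin 1 and 46.8 CPM in bin 5 of HFD (log2 0.93) and at 13.1 and 19.0 CPM in NCD (log2 0.54, interval 0.05 to 1.04). Kdr was at 20.4 and 33.1 CPM in HFD (log2 0.70) and at 22.1 and 29.5 CPM in NCD (log2 0.42, interval 0.04 to 0.80). In NCD the increase of Oit3 and Kdr lay between bin 1 and bin 3. The log2 ratio of bin 3 to bin 1 was 0.56 for Oit3 (0.09 to 1.05) and 0.44 for Kdr (0.07 to 0.81). That of bin 5 to bin 3 was -0.02 for Oit3 (-0.40 to 0.35) and -0.02 for Kdr (-0.32 to 0.27). Over all genes the median log2 ratio of bin 5 to bin 1 was 0.16 in NCD and 0.11 in HFD.

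Clec4g, Dnase1l3 and Gpr182 leaned opposite ways in the 2 sections, though none of the 3 NCD slopes exceeded counting error and, relative to general endothelial genes, the HFD slopes of Clec4g and Gpr182 turned to -0.14 and -0.17 and that of Dnase1l3 was 0.0285. The log2 ratio of bin 5 to bin 1 was -0.14 in NCD and 0.39 in HFD for Clec4g, -0.16 and 0.56 for Dnase1l3, and -0.30 and 0.36 for Gpr182. Dnase1l3 was lower in HFD than in NCD in bin 1, at 37.4 against 48.8 CPM, and higher in bin 5, at 55.2 against 43.8 CPM, which its near-equal totals do not show.

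Lyve1 followed a different course. In HFD it was at 18.6, 24.6, 24.9, 23.1 and 17.2 CPM from bin 1 to bin 5, and in NCD at 4.02, 8.31, 7.64, 6.78 and 3.52 CPM. Both ends were lower than the middle in both sections. The log2 ratio of bin 5 to bin 3 was -0.54 (interval -0.79 to -0.28) in HFD and -1.12 (-1.92 to -0.37) in NCD.

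**Figure D2:**
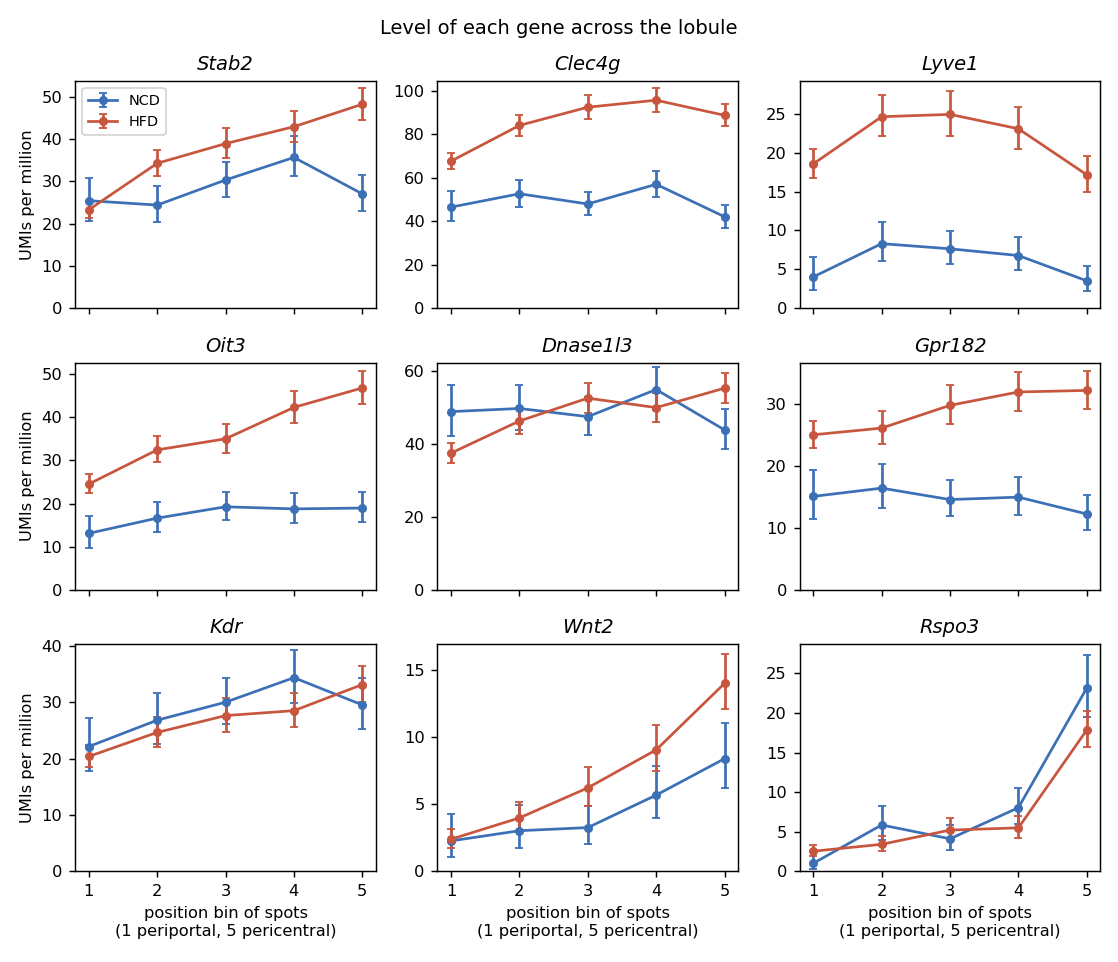
Level of each gene in CPM (linear axes from 0) in the bins of spots from the most periportal (1) to the most pericentral (5), with 95% Poisson intervals, for the NCD and HFD sections. Wnt2 and Rspo3 climb to 8.39 and 23.1 CPM in NCD and 13.99 and 17.9 CPM in HFD, Stab2 and Oit3 climb in HFD, and Lyve1 is lower at both ends.

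General endothelial genes such as Pecam1 and Cdh5 had a slope of their own in HFD, with 160 CPM in bin 1 and 231 CPM in bin 5, against 145 and 165 CPM in NCD. Relative to these 12 genes in place of all UMIs, the log2 ratio of bin 5 to bin 1 for the sinusoidal sum of HFD was 0.0357 in place of 0.57. On this base that of Stab2 was 0.52 and below 1.5-fold, that of Oit3 0.40, that of Kdr 0.17 and that of Dnase1l3 0.0285, while Clec4g and Gpr182 turned to -0.14 and -0.17. The central vein sum was at 2.16. Hepatic stellate cell genes also moved with position in HFD, from 467 to 716 CPM, and Kupffer cell genes from 408 CPM in bin 1 to 707 CPM in bin 3; their part in the slopes was not tested.

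Within each bin, Clec4g, Lyve1, Oit3 and Gpr182 were higher in HFD beyond counting error in 5 of 5 bins. Their log2 ratios ran from 0.54 to 1.08 for Clec4g, from 1.57 to 2.29 for Lyve1, from 0.86 to 1.305 for Oit3 and from 0.67 to 1.40 for Gpr182. For Clec4g, Lyve1, Oit3 and Gpr182, the highest of the 5 ratios was that of bin 5, but its interval overlapped that of the next highest bin. Lyve1 was at 2.29 (1.64 to 3.01) in bin 5 and 2.21 (1.49 to 3.03) in bin 1, so no order is read. The general endothelial sum also differed more in bin 5 (165 CPM in NCD, 231 CPM in HFD) than in bin 1 (145 and 160 CPM). Stab2 was higher in 4 of 5 bins, with -0.13 in bin 1 and 0.84 in bin 5. Kdr ran from -0.27 to 0.17 and Dnase1l3 from -0.38 to 0.33, and both had bins on either side of 0.

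**Figure D3:**
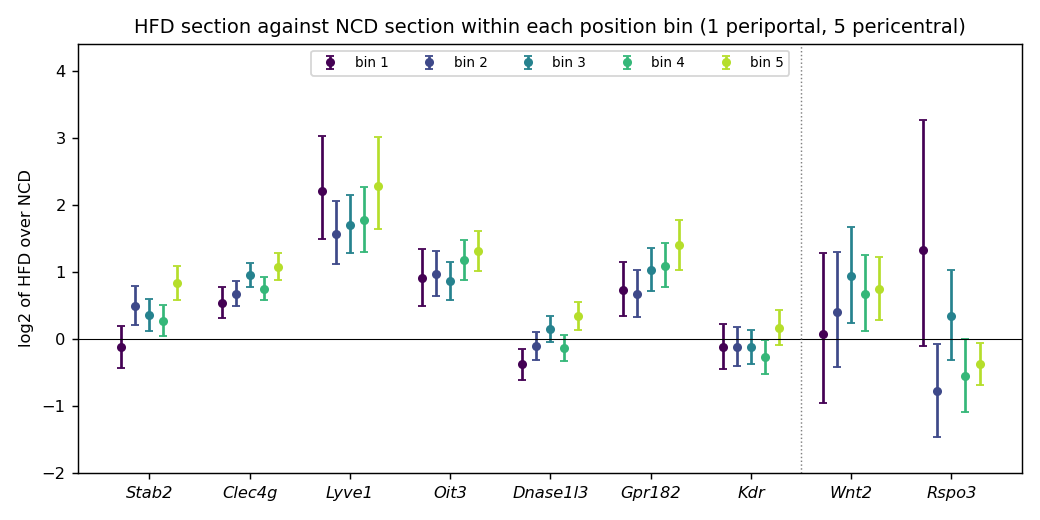
Log2 ratio of HFD to NCD for each gene within each bin of spots, from periportal (dark) to pericentral (light), with exact 95% intervals for counting error. Lyve1 lies between 1.57 and 2.29 in every bin, Dnase1l3 runs from -0.38 to 0.33, and Rspo3 is wide in bin 1, where NCD had 4 UMIs.

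The sinusoidal genes were also compared within spots. Over the 42 ordered pairs of the 7 genes, a gene's level in spots with a UMI of another exceeded that in spots without, beyond counting error, for 27 pairs in HFD, with a median log2 ratio of 0.15 and a highest value of 0.25 (Oit3 in spots with a Dnase1l3 UMI). In NCD this held for 2 pairs, with 3 below 0 and a median of 0.07. The UMIs of NCD were fewer, and the share of pairs past counting error grows with depth, so the counts of the sections are not comparable. Pairs of all genes were not counted, so these values show nothing particular to the 7 genes.

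Genes whose levels over 10 finer position bins were most like the central vein sum were Rdh9, Nxpe2, Car2 and Gstm2, with a mean Pearson r over both sections of 0.981 to 0.984. Those most like the sinusoidal sum were Rgs5, a pericyte and stellate cell gene, with 0.869, then Elf2, Daglb, Mup1 and Wfdc17 down to 0.823. These r are over 10 bins of 1 section each, which share library and depth, out of 6981 genes compared, and are given as a description.

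Other sinusoidal genes were near the background. Of 18 listed, 17 had at least 100 UMIs, 4 were 1.5-fold higher in HFD and 0 lower, where 25.5% of all genes were higher, and their median log2 ratio was 0.16 against 0.24 over all genes. The highest were Eng, a co-receptor for BMP9, at 35.7 CPM in NCD and 64.9 CPM in HFD, and Fgd5 at 3.48 and 5.70 CPM. The lowest were Fam167b at 14.1 and 9.62 CPM and Ehd3, an endocytic recycling protein, at 45.9 and 33.6 CPM. Stab1, the paralog of Stab2, was at 27.4 and 38.0 CPM. Of the 12 general endothelial genes, 4 were higher and 0 lower (median 0.46), from Robo4 at 5.92 and 10.4 CPM and Esam at 13.5 and 22.2 CPM down to Calcrl at 13.2 and 12.6 CPM and Erg at 3.48 and 2.47 CPM. The study names F8, Mmrn2, Bmp2, Oit3 and Ushbp1 as endothelial markers, and 3 of these 5 were 1.5-fold higher in HFD (F8, Oit3 and Ushbp1), and how the study chose them is not given in the sources used here, so they are no independent evidence of a direction.

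Genes of continuous capillaries, basement membrane and leukocyte adhesion were the endothelial list with the highest median. Of 11 genes with enough UMIs, 8 were 1.5-fold higher in HFD and 1 lower, with a median log2 ratio of 1.23. The shares over all genes were 25.5% and 5.01%, with a median of 0.24. The basement membrane collagens Col4a1 and Col4a2 were at 12.9 and 6.16 CPM in NCD and at 50.6 and 24.8 CPM in HFD. Esm1, a marker of sprouting endothelium, was at 0.344 CPM (10 UMIs) and 1.83 CPM (132 UMIs), a log2 ratio of 2.41 (interval 1.49 to 3.504). Vcam1, which binds leukocytes, was at 13.5 and 35.8 CPM, and Plvap, which forms the diaphragms of capillary pores, at 35.5 and 75.4 CPM. Vwf, the von Willebrand factor of large vessels, went the other way, at 15.4 and 9.91 CPM, and Icam1 was at 11.5 and 14.7 CPM. Collagen IV is also made by stellate and smooth muscle cells, whose gene lists were at 422 and 32.3 CPM in NCD and at 582 and 86.1 CPM in HFD, with 0 genes of either list at 0; their part was not tested.

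For Kdr, its ligands and related receptors were listed. Of 10 genes of the VEGF and angiopoietin pathway with enough UMIs, 2 were 1.5-fold higher in HFD and 0 lower (median 0.36). The shares over all genes were 25.5% and 5.01% (median 0.24). The ligand Vegfa was at 32.6 CPM in NCD and 27.6 CPM in HFD, the decoy receptor Flt1 at 5.41 and 7.09 CPM, and the co-receptor Nrp1 at 4.92 and 3.91 CPM. Angpt2, which destabilises vessels, was at 0.792 CPM (23 UMIs) and 1.79 CPM (129 UMIs), and the receptor Tie1 at 7.68 and 11.5 CPM. Along the lobule of HFD, Nrp2 had the highest ratio of this list, with 5.22 CPM in bin 1 and 12.8 CPM in bin 5, and of the NCD genes with enough UMIs Tek, the angiopoietin receptor, with 6.04 and 13.8 CPM.

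**Figure D4:**
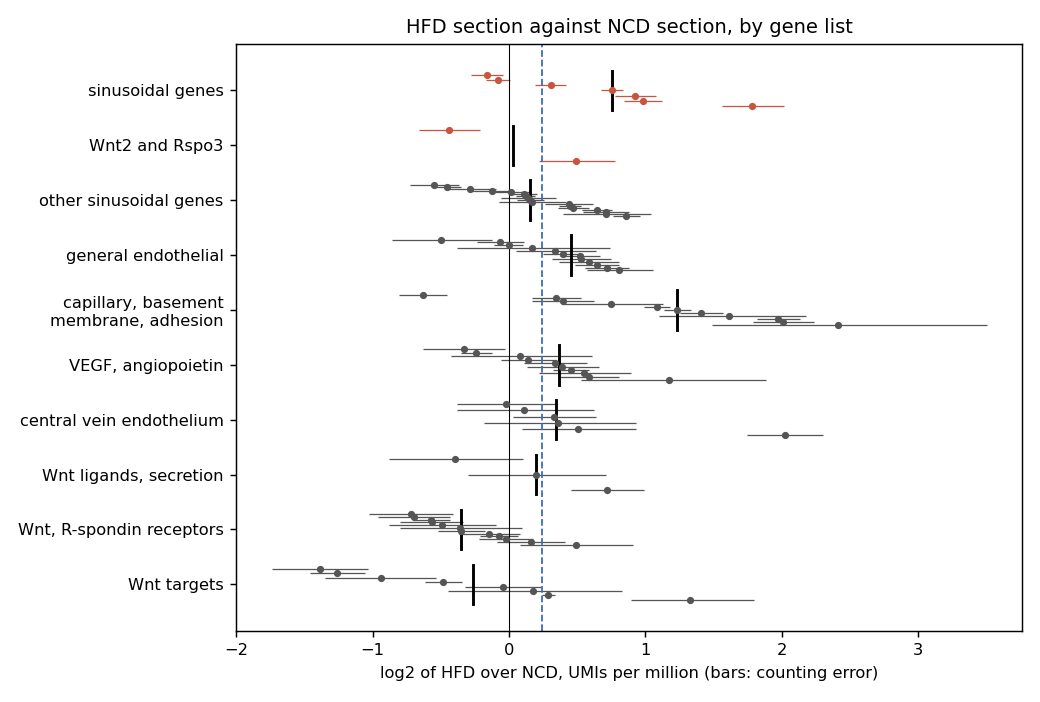
Log2 ratio of HFD to NCD for each gene with at least 100 UMIs, by list, with 95% intervals for counting error, black ticks for the list's median and a dashed line for the median of all genes at 0.24. The capillary list has a median of 1.23, the sinusoidal genes 0.76, and the Wnt receptor and target lists -0.35 and -0.26.

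Beside Wnt2 and Rspo3, the other ligand known from central vein endothelium is Wnt9b. It had 28 UMIs in NCD and 43 in HFD, under the minimum used for lists. In NCD 24 of its UMIs lay in bin 5, at 4.03 CPM, and 0 in bin 1, which allows up to 3 UMIs there. In HFD 23 lay in bin 5, at 1.74 CPM, and 1 in bin 1. Within bin 5 its log2 ratio of HFD to NCD was -1.21 (interval -2.10 to -0.32), the same side as Rspo3 and opposite to Wnt2. Of the 7 listed Wnt ligands and secretion genes, 3 had enough UMIs and 1 was 1.5-fold higher in HFD, where 25.5% of all genes were. Wls, the carrier that brings Wnts to the cell surface, was at 4.99 CPM in NCD and 8.21 CPM in HFD. Wnt4 was at 1.58 and 1.82 CPM and Porcn, which lipidates Wnts, at 1.89 and 1.44 CPM.

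Among 12 receptors and their regulators, 0 were 1.5-fold higher in HFD and 2 were lower, with a median log2 ratio of -0.35. The shares over all genes were 25.5% and 5.01%, with a median of 0.24. The 2 lower genes were Fzd7 at 5.06 CPM in NCD and 3.08 CPM in HFD and Znrf3 at 6.82 and 4.201 CPM. Rnf43 was at 8.54 and 5.77 CPM and the R-spondin receptors Lgr4 and Lgr5 at 25.0 and 16.8 CPM and at 2.996 and 2.14 CPM, while Fzd5 was at 2.20 and 3.09 CPM. Lgr5 was among the most pericentral genes, with 47 UMIs in bin 5 and 2 in bin 1 of NCD, and 89 and 8 in HFD.

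Of 8 Wnt target genes, 1 was 1.5-fold higher in HFD and 3 were lower, with a median of -0.26. The shares over all genes were 25.5% and 5.01%, with a median of 0.24. Axin2, a feedback inhibitor of β-catenin, was at 4.86 CPM in NCD and 1.86 CPM in HFD (log2 -1.39, interval -1.74 to -1.03). Tbx3, a transcription factor, was at 14.2 and 5.93 CPM (log2 -1.26), and Sp5, a repressor of Wnt targets, at 3.17 and 1.65 CPM (log2 -0.94). Tnfrsf19 went the other way, at 1.69 and 4.24 CPM (log2 1.33), as did Lect2 within 1.5-fold, at 163 and 199 CPM. In bin 5 alone, where the ligands were highest, Axin2 was at 10.1 CPM in NCD and 4.16 CPM in HFD (log2 -1.27, interval -1.83 to -0.72), Tbx3 at 27.2 and 13.8 CPM, and Notum, a secreted Wnt deacylase, at 43.8 and 34.7 CPM. Sp5 was lower in HFD there (log2 -0.79, interval -1.31 to -0.27). Tnfrsf19 was higher in HFD there too (log2 1.47, interval 0.81 to 2.19), as was Lect2 (log2 0.29, interval 0.21 to 0.36). Nkd1 at 0.43 (-0.01 to 0.88) and Tcf7 at -0.21 (-1.23 to 0.88) were within counting error. The target genes with at least 100 UMIs in the end bins were 1.5-fold higher in bin 5 in 3 of 3 cases in NCD and 5 of 5 in HFD. Over all genes, 11.7% in NCD and 6.7% in HFD were as much higher. The bins were themselves ranked by pericentral hepatocyte genes such as Glul. A slope of other pericentral hepatocyte genes along them was thus largely fixed in advance and is no separate result. Between sections, members of the target list differed in both directions.

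**Figure D5:**
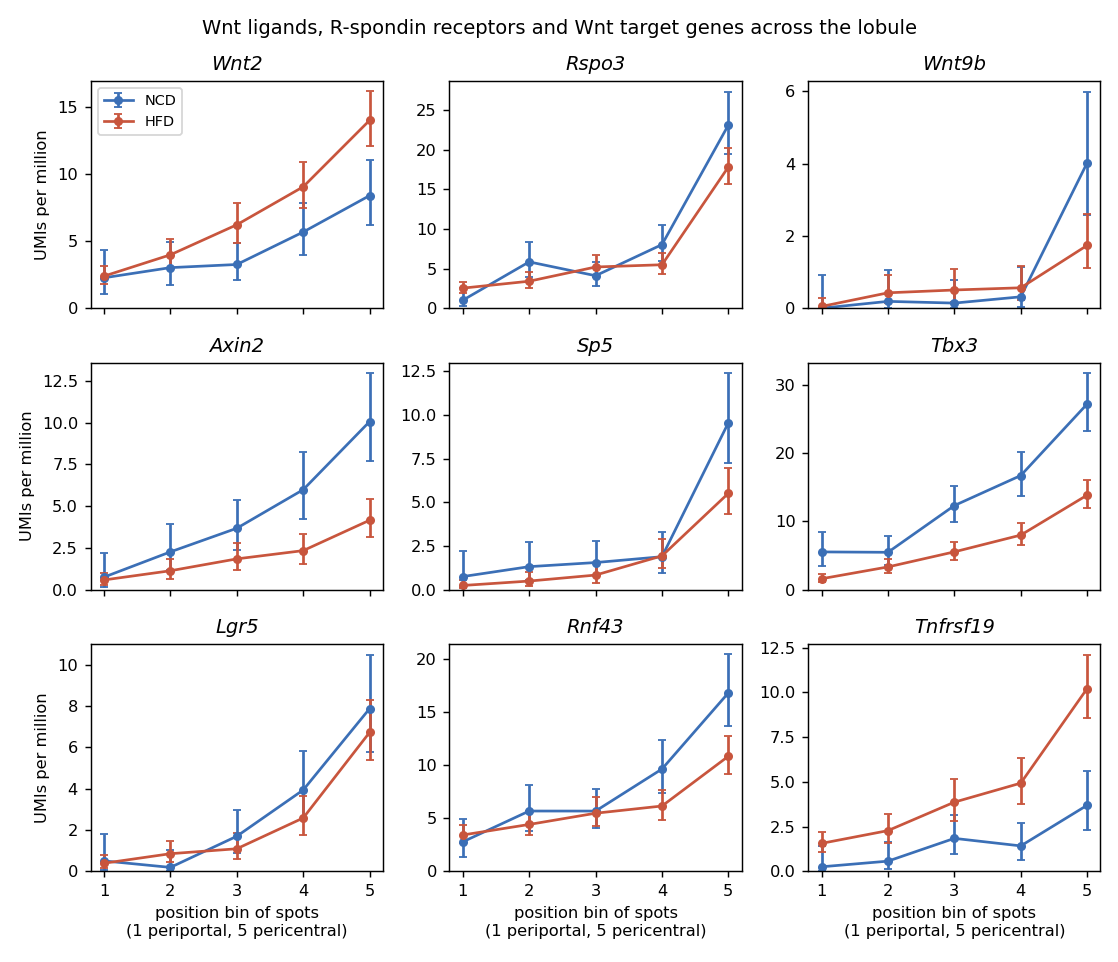
Level in CPM (linear axes from 0) of 3 ligands, 2 receptor-side genes (Lgr5, Rnf43) and 4 Wnt targets in the bins of spots, periportal (1) to pericentral (5), with 95% Poisson intervals. In bin 5 Axin2 is at 10.1 CPM in NCD and 4.16 CPM in HFD, and Wnt9b at 4.03 and 1.74 CPM, while Tnfrsf19 is higher in HFD.

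Other genes of central vein endothelium allowed a look beyond the ligands. Of 6 with enough UMIs, 1 was 1.5-fold higher in HFD and 0 lower, where 25.5% of all genes were higher and 5.01% lower. This was Thbd, the anticoagulant thrombomodulin, at 16.6 CPM against 4.10 CPM in NCD (log2 2.02, interval 1.75 to 2.31). Along the lobule of NCD its log2 ratio of bin 5 to bin 1 was 0.23 (-0.67 to 1.19), within counting error. In HFD, Cdh13 and Lhx6 were 1.5-fold higher in bin 5 and Thbd was not. Lhx6 was at 2.17 CPM in NCD and 3.08 CPM in HFD, Selp at 1.62 and 1.75 CPM and Kit at 3.06 and 3.02 CPM. Cdh13 was at 1.26 CPM (5 UMIs) in bin 1 and 12.4 CPM (74 UMIs) in bin 5 of NCD, under the minimum used for lists. Its log2 ratio there was 3.30 (interval 2.02 to 4.97). In HFD it was at 3.997 and 9.53 CPM, so it was higher near the central vein in both sections, as Rspo3 was.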

How the data were processed

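Unnormalized UMI counts of each gene in each spot were deposited by the authors in 2 tables per slide, 1 with every printed spot and 1 limited to spots over tissue. Per the file headers these were made with Space Ranger 1.3.1. The build mm10 stands in the submitters' processing notes, and the annotation release is not given in the sources used here. The tables differed by 0 UMIs in the spots they share. Of 32285 gene identifiers, 32158 are in GENCODE M21. Slide positions and images were not used here, so lobule position is a score over genes.

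Counts were pooled over spots and divided by all their UMIs (per 1000000, CPM). Levels have exact Poisson intervals, shares exact Clopper-Pearson intervals and ratios exact conditional binomial intervals, at the 95% level. Counting error is all they cover, since there was 1 section per diet. A count of 0 allows up to 3 UMIs, 0.103 CPM over the NCD and 0.0416 CPM over the HFD section. Lists were counted at 1.5-fold among genes with at least 100 UMIs in the groups compared. Genes named are the members, the 2 highest and 2 lowest ratios of each list, those with the highest pericentral ratio, the 5 genes most like each sum over 10 position bins (at least 200 UMIs in each section), and a few added for their role after their values were seen; 1 gene that the rule names is not reported here. Members and lists were chosen with earlier results of these data known.

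Intervals were computed with scipy 1.17.1 and random thinning with numpy 2.4.6 (seed 1), tables were handled with pandas 2.3.3 under Python 3.11.15, figures were drawn with matplotlib 3.10.9, and the code was tested on simulated data. Alternatives changed the spots kept, their weighting and depth, the total, the spots richest in a gene, the off-tissue signal, the position genes and groups, the fold and the minimum.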

Additional observations from a re-analysis of the deposited data

Results flagged for a closer look

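Clec4g, Dnase1l3 and Gpr182 leaned opposite ways along the lobule in the 2 sections. Their log2 ratio of the most pericentral to the most periportal bin was -0.14 in NCD and 0.39 in HFD for Clec4g, -0.16 and 0.56 for Dnase1l3, and -0.30 and 0.36 for Gpr182. All 3 NCD intervals include 0 (-0.42 to 0.14 for Clec4g, -0.43 to 0.12 for Dnase1l3 and -0.81 to 0.22 for Gpr182). Relative to general endothelial genes, the HFD values of Clec4g and Gpr182 turned to -0.14 and -0.17, the same side as NCD. With 1 section per diet, the difference was not tested.

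Spots off tissue, which the comparisons do not use, held UMIs of these genes well above the level that a count of 0 allows. The sinusoidal genes summed to 182 CPM off tissue on the NCD slide and 169 CPM on the HFD slide, and Wnt2 and Rspo3 to 9.02 CPM and 8.27 CPM. No group of 4 or more samples exists here, so no sample was checked against its group.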

How the results depend on the processing

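No paired analysis was possible because each diet has 1 section, and for the same reason no section could be left out. Over 78 values of sums, pairs and counts under an alternative, 48 stayed within the interval of the reported value (counts within 1.5-fold), 30 moved and 0 changed sign against an interval that excluded 0. The log2 ratio of HFD to NCD of the sinusoidal sum (0.50) was 0.35 as a mean of CPM per spot, 0.30 with spots drawn down to 1000 UMIs, 0.35 with off-tissue UMIs subtracted, and, in 2 alternatives chosen after seeing the data, 0.13 relative to general endothelial genes and 0.76 as the median of the members. That of the central vein sum (-0.04) was -0.24, -0.55, -0.74 and -0.40 under the first 4 of these. The pericentral to periportal log2 ratio of the sinusoidal sum in NCD (0.02) was -0.20, -0.17, 0.18, -0.17 and -0.14 under the same 5, in that order, and -0.28 with 10 bins. In HFD (0.57) it was 0.48 per spot, 0.66 drawn down, 0.46 with 3 bins, 0.67 with 10 bins and 0.0357 relative to endothelial genes. For the central vein sum it was 4.53 drawn down and 2.27 with 3 bins in NCD (3.27), and in HFD (2.69) 2.35 without the 1% of spots richest in these genes, 2.17 with 3 bins, 3.49 with 10 bins and 2.16 relative to endothelial genes. Within the most pericentral bin, Rspo3 in HFD spots with a Wnt2 UMI was at 0.32. At 2-fold, 1 in place of 4 members was higher in HFD and 3 in place of 5 were pericentral in HFD, and at a minimum of 20 UMIs 2 in place of 1 were pericentral in NCD. Of 256 values of single members, 194 stayed, 58 moved and 4 changed sign: relative to endothelial genes Stab2 in HFD over NCD (-0.0572) and Clec4g (-0.14) and Gpr182 (-0.17) along the lobule of HFD, and Wnt2 in HFD over NCD drawn down (-0.33). The largest move was Kdr along the lobule of NCD, from 0.42 to 3.94 with off-tissue UMIs subtracted. Bin 1 of NCD held 88 Kdr UMIs in 571 spots, and the 1300 off-tissue spots held 196. The subtraction thus left few Kdr UMIs in bin 1, and 3.94 is not read as a slope. That subtraction gave no value along the lobule of NCD for Oit3, Wnt2, Rspo3 and the central vein sum, and drawing down gave none for Wnt2 in either section, because a bin was left with 0 UMIs or fewer. Beyond the settings' own construction, the cause of these moves was not tested. Depth limits Lyve1, Wnt2 and Rspo3 most, with 180, 136 and 254 UMIs in the NCD section.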

Other observations

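Signals that sinusoidal endothelium sends to its neighbours were listed as well. Of 10 such genes with enough UMIs, 4 were 1.5-fold higher in HFD and 1 lower, with a median log2 ratio of 0.42, where 25.5% of all genes were higher, 5.01% were lower and the median was 0.24. Nos3, the endothelial nitric oxide synthase, was at 2.17 CPM in NCD and 5.23 CPM in HFD, and the Notch ligand Dll1 at 1.38 and 2.55 CPM. Bmp6, which sets hepcidin in hepatocytes, was at 6.20 and 2.72 CPM (log2 -1.19, interval -1.49 to -0.89), while the related Bmp2 was at 17.4 CPM in both. The chemokine Cxcl12 was at 205 and 143 CPM.

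Portal vessel endothelium gave 1 gene 1.5-fold higher in HFD (Efnb2, at 1.65 CPM in NCD and 2.69 CPM in HFD) and 1 lower (Vwf) of 8 with enough UMIs. The shares over all genes were 25.5% and 5.01%. Vwf was pericentral in NCD, at 11.8 CPM in bin 1 and 31.0 CPM in bin 5, and less steep in HFD, at 12.3 and 18.1 CPM. The arterial gene Gja5 had 13 UMIs in bin 1 and 1 in bin 5 of NCD, and 30 and 1 in HFD.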
